A study of Homo sapiens with 36 samples.

Results

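The genes described here are 10 regulators of the G1 phase of the cell cycle: the CDK inhibitors CDKN1A, CDKN1B, CDKN2C and CDKN2D, the D cyclins CCND1, CCND2 and CCND3, their partner kinases CDK4 and CDK6, and the retinoblastoma gene RB1. They were chosen by name with earlier results of these data known. The adjusted p-values and counts of members below are thus no independent test of that choice. Each gene was read from the brightest array probe annotated to its symbol. Of the 10 genes, 9 had a named probe and were among the 15308 genes tested. CDKN2C, which encodes p18, was not analysed here. The cells were NB4, a single human line from acute promyelocytic leukaemia that carries the PML-RARA fusion gene. Every sample was total RNA of this line hybridised to 1 Illumina Sentrix Human-6 BeadChip array, in medium with serum. There were 4 treatments, each sampled at 8, 24 and 48 h: all-trans retinoic acid (ATRA) followed by atorvastatin, ATRA alone, atorvastatin alone, and untreated control. Atorvastatin inhibits HMG-CoA reductase, the rate-limiting enzyme of cholesterol synthesis, and ATRA drives promyelocytic cells toward granulocytes. Each of the 12 groups had 3 arrays, 36 in all, from independent experiments on different days per the series' design text. The doses are not given in the sources used here. In bulk RNA of this kind, fewer cells in a given state and less RNA per cell cannot be told apart.

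In G1, D cyclins bind CDK4 or CDK6, and the active kinases phosphorylate the RB1 protein, which then releases E2F factors to switch on genes for DNA replication. The INK4 proteins p18 (CDKN2C) and p19 (CDKN2D) block CDK4 and CDK6. The CIP/KIP proteins p21 (CDKN1A) and p27 (CDKN1B) bind cyclin-CDK complexes more broadly and act strongly on those with CDK2. Myeloid cells that mature into granulocytes leave the cycle in G1, and p21 is a known target of retinoid and p53 signalling.

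The promoters of a gene that rose with each agent by 48 h, of one that rose chiefly where ATRA was given, and of one whose signal was lowest with both agents are shown because they belong to the members the results turn on. RefSeq windows of the 250 bases before a start site (GRCh38.p14) were held for 8 of the 10 genes, in 13 windows. The windows lie at chr6:36678464-36678713 on the plus strand for CDKN1A, at chr19:10568980-10569229 on the minus strand for CDKN2D, and at chr12:57752311-57752560 on the minus strand for CDK4. Capitals mark GC boxes (GGGCGG, or CCGCCC on the other strand) and the E-box CACGTG, a palindrome that MYC and MAX bind.
CDKN1A: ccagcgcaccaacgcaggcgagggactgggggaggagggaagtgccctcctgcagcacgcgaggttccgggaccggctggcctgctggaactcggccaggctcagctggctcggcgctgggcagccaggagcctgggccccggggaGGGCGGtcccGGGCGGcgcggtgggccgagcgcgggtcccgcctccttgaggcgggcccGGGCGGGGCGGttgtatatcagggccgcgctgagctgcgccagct
CDKN2D: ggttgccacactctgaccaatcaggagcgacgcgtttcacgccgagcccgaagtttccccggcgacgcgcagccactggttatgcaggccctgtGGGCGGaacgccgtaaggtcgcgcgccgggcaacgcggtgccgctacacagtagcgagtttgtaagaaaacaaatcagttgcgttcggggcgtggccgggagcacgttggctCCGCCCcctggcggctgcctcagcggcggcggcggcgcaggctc
CDK4: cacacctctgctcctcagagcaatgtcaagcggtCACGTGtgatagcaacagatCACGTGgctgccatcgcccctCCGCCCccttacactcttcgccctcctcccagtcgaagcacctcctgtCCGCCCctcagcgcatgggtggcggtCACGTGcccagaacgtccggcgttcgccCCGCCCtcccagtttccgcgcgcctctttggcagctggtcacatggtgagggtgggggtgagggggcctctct
The CDKN1A window held 4 GC boxes, with the last pair sharing a base, and its GC content was 76.4%. The CDKN2D window held 2 GC boxes at a GC content of 67.6%, and the CDK4 window held 3 GC boxes and 3 E-boxes at 65.6%. Over all 35116 RefSeq windows of this length, 42.6% held a GC box and 6.34% an E-box on either strand. None of the 3 printed windows held the letters TATAAA, which 10.7% of all windows do. These matches describe the letters only.

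Signals are given as log2 of the background-corrected, quantile-normalised intensity, on which 1 unit is a doubling, and a call means a limma adjusted p under 0.05 over all genes tested in that comparison. Errors are SDs for group means and SEs of the fit for changes, with n = 3 arrays per group unless said. The array medians before normalisation ran from 78.5 to 185.4 intensity units, and arrays of 1 group correlated at 0.965 to 0.993. In replicate 1 the medians were 152.2 to 185.4 without ATRA and 101.8 to 118.2 with it, and in replicates 2 and 3 they were 78.5 to 100.8. Within replicate 1, array brightness and ATRA thus cannot be told apart. The promyelocyte markers MPO, CTSG, PRTN3, AZU1 and MS4A3 lay between 11.60 and 14.81 in control arrays, and ELANE at 6.57. The erythroid markers HBB, HBG1 and ALAS2 lay between 6.14 and 6.31, at the 18.6th to the 48.8th percentile of all probes. The median of all probes was 6.34. The T-cell marker CD3D stood at 10.02, while the other lymphoid markers with a probe were between 5.95 and 6.71. Of 5 epithelial and stromal markers, KRT18 and EPCAM stood at 8.52 and 8.20. KRT19, COL1A1 and COL1A2 were at 6.26 to 6.33, between the 40.5th and the 53.1st percentile. For 2 libraries of replicate 1 at 24 h the expression went against the labels. In its change from the 24 h control mean, the library labelled ATRA correlated at 0.17 with the other ATRA arrays and at 0.43 with the atorvastatin arrays. The library labelled atorvastatin correlated at 0.08 with its own label and at 0.73 with the ATRA arrays, in both cases across 15308 genes. Both were kept as labelled, and results that use them are also given without them.

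The members' probes differed widely in brightness, which is a property of each probe and no ranking of transcript levels. CCND2, CCND3 and CDK4 were read by probes brighter than 99.4%, 98.1% and 96.4% of all probes. CDKN2D, CCND1, CDKN1B, CDKN1A and RB1 followed, between the 91.2nd and the 86.1st percentile. CDK6 was read at 6.36, at the 59.7th percentile, so its values carry little signal above the median probe. CDKN1A had 1 further probe and CDKN2D had 2. The further CDKN1A probe was dim, at 6.23, and its changes over the 15 direct agent comparisons ran only from -0.30 to 0.15. The further CDKN2D probes were also dim, at 6.14 and 6.37, with changes from -0.29 to 0.21 and from -0.10 to 0.71.

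CDKN1A rose with each agent and rose most with both. At 48 h its signal was 9.43, 9.56 and 9.90 with both agents, 8.29, 8.46 and 9.34 with ATRA, and 8.78, 9.07 and 9.00 with atorvastatin, against 7.15, 7.14 and 7.46 in controls. All 9 treated arrays lay above the 3 controls, and the arrays with both agents lay above every array with a single agent. The change against control was 2.38 ± 0.21 with both agents (5.21-fold, adjusted p = 1.9e-10), 1.45 ± 0.21 with ATRA (2.72-fold, adjusted p = 1.4e-05) and 1.70 ± 0.21 with atorvastatin (3.25-fold, adjusted p = 7.8e-06). These changes stayed called without any single library, at 2.25 to 2.48, 1.12 to 1.65 and 1.64 to 1.80. Averaging CDKN1A over both of its probes, the dim one included, gave 1.11, 0.65 and 0.70, all still called.

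Both agents together exceeded each alone at 48 h. The difference was 0.94 ± 0.21 from ATRA (adjusted p = 0.0041) and 0.68 ± 0.21 from atorvastatin (adjusted p = 0.025). The first lost its call without the ATRA 48 h array of replicate 1 (0.73, adjusted p = 0.068), and also without all arrays of replicate 2. The second lost it without replicate 1 of the atorvastatin arrays (0.59, adjusted p = 0.11) or replicate 3 of the arrays with both agents (0.55, adjusted p = 0.13), and in a fit on the 48 h arrays alone (0.68, adjusted p = 0.056). The interaction, the change with both agents minus the sum of the single-agent changes, was -0.76 ± 0.30 and was not called (adjusted p = 0.41). Its 95% interval ran from -1.38 to -0.15.

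At 8 h CDKN1A was called where ATRA was given and not with atorvastatin alone. At 8 h the signal was 8.24, 8.41 and 7.93 with both agents, 8.27, 8.66 and 8.15 with ATRA, and 7.29, 7.54 and 7.30 with atorvastatin, against 6.95, 7.61 and 7.30 in controls. Arrays with ATRA, alone or with atorvastatin, lay above all controls, whereas the atorvastatin arrays lay within the control range. The combination exceeded atorvastatin by 0.82 ± 0.21 (adjusted p = 0.047), a call lost without any 1 of the 6 libraries compared (0.71 to 0.95, adjusted p up to 0.31) and under 4 alternatives of the processing (0.43 to 0.97, adjusted p 0.058 to 0.12), and ATRA was not set against atorvastatin directly. The change was 0.90 ± 0.21 with both agents (adjusted p = 0.020), 1.08 ± 0.21 with ATRA (adjusted p = 0.0039) and 0.09 ± 0.21 with atorvastatin (adjusted p = 1.00). With median scaling the 8 h changes were 1.02 with both agents and 0.99 with ATRA, and neither was called (adjusted p = 0.055 and 0.088). With both probes averaged they were 0.44 (adjusted p = 0.10) and 0.53, of which the ATRA change kept its call (adjusted p = 0.026). The ATRA call was lost without replicate 1 of the 8 h controls (0.91, adjusted p = 0.057) or replicate 2 of the 8 h ATRA arrays (0.92, adjusted p = 0.062), and that for both agents without 4 of 6 single libraries (0.73 to 0.91, adjusted p up to 0.19).

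At 24 h CDKN1A stood above control and, on all arrays as labelled, near the same level under all 3 treatments. Its signal was 7.97, 7.84 and 8.38 with both agents, 8.47, 7.69 and 8.07 with ATRA, and 8.03, 8.17 and 8.29 with atorvastatin, against 7.33, 7.13 and 7.09 in controls. The first value for ATRA and the first for atorvastatin are those of the doubted libraries. All treated arrays lay above the controls, and on all arrays as labelled the 3 treatments overlapped one another. Without the doubted libraries the ATRA arrays lay below the atorvastatin arrays, with means of 7.88 and 8.23 over 2 arrays each. Both then still overlapped the arrays with both agents. The change with both agents was 0.88 ± 0.21 (adjusted p = 0.0070), which was lost without replicate 3 of its treated arrays (0.72, adjusted p = 0.076) or with probes averaged (0.40, adjusted p = 0.060). With ATRA it was 0.89 ± 0.21 (adjusted p = 0.043) and 0.69 without the doubted libraries (adjusted p = 0.086), and the call was lost without any 1 of the 6 libraries compared (0.69 to 1.08, adjusted p up to 0.28). It was also lost without background correction (0.79, adjusted p = 0.064), with the authors' values (0.82, adjusted p = 0.060), with probes averaged (0.41, adjusted p = 0.17) and on the 24 h arrays alone (0.89, adjusted p = 0.22). With atorvastatin it was 0.98 ± 0.21 (adjusted p = 0.090) and 1.04 without them (adjusted p = 0.024).

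**Figure D1:**
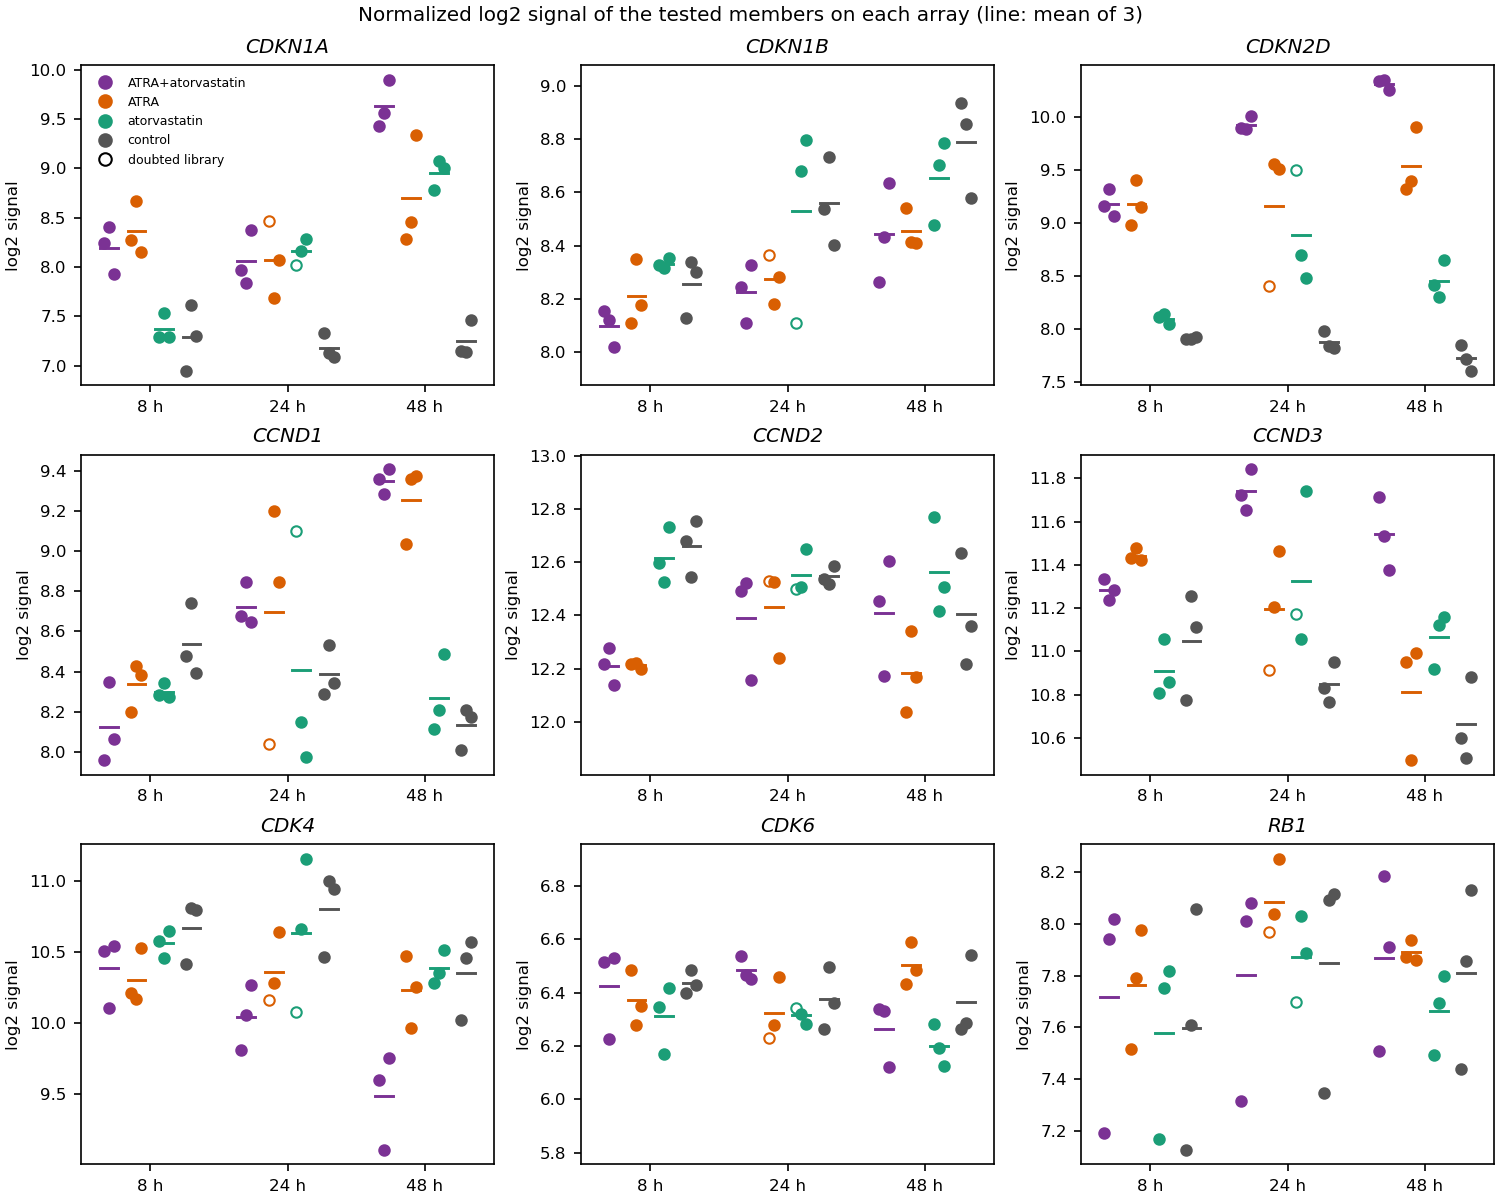
Normalised log2 signal (y axis) of the 9 tested genes on each of the 36 arrays at 8, 24 and 48 h (x axis). Points are arrays, bars are means of 3, colours are treatments and open circles the 2 doubted libraries. At 48 h the 3 arrays with both agents sit at 9.43 to 9.90 for CDKN1A and at 10.25 to 10.35 for CDKN2D, above all others at that time.

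CDKN2D, which encodes the INK4 inhibitor p19, rose wherever ATRA was given, at every time. At 48 h its signal was 10.34, 10.35 and 10.25 with both agents, 9.32, 9.40 and 9.91 with ATRA, and 8.41, 8.30 and 8.65 with atorvastatin, against 7.85, 7.71 and 7.61 in controls. The 4 treatments did not overlap at 48 h and stood in that order. The change was 2.59 ± 0.21 with both agents (6.01-fold, adjusted p = 2.5e-11), 1.82 ± 0.21 with ATRA (3.52-fold, adjusted p = 4.4e-07) and 0.73 ± 0.21 with atorvastatin (adjusted p = 0.097). Without the doubted libraries the atorvastatin change was called at the same size (adjusted p = 0.00099). Both agents exceeded ATRA by 0.77 ± 0.21 (adjusted p = 0.019) and atorvastatin by 1.86 ± 0.21 (adjusted p = 6.6e-08). The difference from ATRA lost its call in 4 of the 6 cases that left out 1 library (0.66 to 0.76, adjusted p up to 0.13).

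At 8 h CDKN2D was 9.16, 9.32 and 9.06 with both agents and 8.98, 9.41 and 9.15 with ATRA, against 7.91, 7.90 and 7.93 in controls. The atorvastatin arrays were at 8.11, 8.14 and 8.04, also above the controls but by only 0.18 ± 0.21 (adjusted p = 1.00). ATRA gave 1.26 ± 0.21 (adjusted p = 4.7e-04) and both agents 1.27 ± 0.21 (adjusted p = 5.0e-04). Averaged over its 3 probes, CDKN2D was not called in either (adjusted p = 0.13 and 0.11). Without all arrays of replicate 2 neither change was called, with fewer arrays in the fit.

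At 24 h CDKN2D was 9.89, 9.89 and 10.00 with both agents, 8.41, 9.55 and 9.51 with ATRA, and 9.50, 8.70 and 8.48 with atorvastatin, against 7.98, 7.84 and 7.82 in controls. The first ATRA value, from a doubted library, lay near the other atorvastatin arrays, and the first atorvastatin value, from the other doubted library, lay near the other ATRA arrays. With both agents the change was 2.05 ± 0.21 (adjusted p = 9.3e-08). With ATRA it was 1.28 ± 0.21 (adjusted p = 0.0025) and 1.65 without the doubted libraries (adjusted p = 2.9e-10). On all arrays that ATRA call was lost without replicate 2 (1.08, adjusted p = 0.077) or 3 (1.10, adjusted p = 0.083) of the ATRA arrays, on the 24 h arrays alone (1.28, adjusted p = 0.24) and with its 3 probes averaged (0.40, adjusted p = 0.12). With atorvastatin it was 1.01 ± 0.21 (adjusted p = 0.071) and 0.71 without them (adjusted p = 0.016).

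CDKN1B, which encodes p27, was called in none of the 18 agent comparisons with all arrays (lowest adjusted p 0.078). In controls its signal rose over culture time: it was 8.93, 8.86 and 8.58 at 48 h, against 8.13, 8.34 and 8.30 at 8 h, a change of 0.53 ± 0.14 (adjusted p = 0.022). That call was lost without 4 of the 6 single libraries (0.46 to 0.56, adjusted p up to 0.12), and with median scaling (0.44, adjusted p = 0.38). At 48 h it was 8.26, 8.43 and 8.64 with both agents and 8.54, 8.41 and 8.41 with ATRA. The ATRA arrays lay below all 3 controls, and 1 array with both agents lay within their range. The change with both agents was -0.35 ± 0.14 (adjusted p = 0.078, or 0.037 without the doubted libraries) and with ATRA -0.34 ± 0.14 (adjusted p = 0.15). With median scaling the first was 0.062, so its direction depends on the scaling.

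Among the D cyclins, CCND1 rose with ATRA at 48 h and with both agents to a like level. Its signal was 9.36, 9.28 and 9.41 with both agents, 9.03, 9.36 and 9.37 with ATRA, and 8.12, 8.21 and 8.49 with atorvastatin, against 8.01, 8.21 and 8.18 in controls. The arrays with ATRA, alone or combined, lay above all others, and atorvastatin overlapped control. The change was 1.22 ± 0.21 with both agents (2.33-fold, adjusted p = 3.3e-05), 1.12 ± 0.21 with ATRA (2.18-fold, adjusted p = 3.3e-04) and 0.14 ± 0.21 with atorvastatin (adjusted p = 0.89). Both agents differed from ATRA by 0.09 ± 0.21, with a 95% interval from -0.33 to 0.52.

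The rise of CCND1 was late. At 8 h the signal was 7.96, 8.35 and 8.06 with both agents, below the controls at 8.48, 8.74 and 8.39, but that change of -0.41 ± 0.21 was not called (adjusted p = 0.54). At 24 h ATRA arrays read 8.04, 9.20 and 8.85 and atorvastatin arrays 9.10, 8.15 and 7.98, against 8.29, 8.53 and 8.34 in controls. In each treatment the doubted first library lay apart from the other 2 arrays. The ATRA change at 24 h was 0.31 ± 0.21 (adjusted p = 0.75) and 0.63 without the doubted libraries (adjusted p = 0.0058).

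CCND3 rose with the combination. At 48 h its signal was 11.72, 11.53 and 11.38 with both agents, 10.95, 10.50 and 10.99 with ATRA, and 10.92, 11.12 and 11.16 with atorvastatin, against 10.60, 10.51 and 10.88 in controls. Arrays with both agents lay above all others at that time, and the atorvastatin arrays lay above all controls. The change with both agents was 0.88 ± 0.16 (1.84-fold, adjusted p = 6.7e-05), against 0.15 ± 0.16 with ATRA (adjusted p = 0.70) and 0.40 ± 0.16 with atorvastatin (adjusted p = 0.28). Both agents exceeded ATRA by 0.73 ± 0.16 (adjusted p = 0.0028) and atorvastatin by 0.48 ± 0.16 (adjusted p = 0.037). The difference from ATRA was not called without replicate 2. The difference from atorvastatin was not called with the authors' values (0.40, adjusted p = 0.068), on the 48 h arrays alone (adjusted p = 0.070) or without 4 of the 6 single libraries (0.39 to 0.50, adjusted p up to 0.17). The interaction of 0.33 ± 0.22 was not called (adjusted p = 0.77).

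At 24 h CCND3 was 11.72, 11.65 and 11.84 with both agents, against 10.83, 10.77 and 10.95 in controls, a change of 0.89 ± 0.16 (adjusted p = 3.3e-04). ATRA arrays then read 10.91, 11.21 and 11.47 and atorvastatin arrays 11.17, 11.06 and 11.74, the first of each from a doubted library. All atorvastatin arrays lay above the controls. Without the doubted libraries the means were 11.34 with ATRA and 11.40 with atorvastatin, against 10.85 in controls. Neither change was called, with or without these libraries. ATRA alone gave 11.43, 11.48 and 11.42 at 8 h, above the controls at 10.78, 11.25 and 11.11, with a change of 0.40 ± 0.16 that was not called (adjusted p = 0.33). With ATRA the signal at 48 h was lower than at 8 h by -0.63 ± 0.16 (adjusted p = 0.011), a call lost with median scaling (-0.52, adjusted p = 0.31) or without replicate 2 of the 48 h ATRA arrays (-0.47, adjusted p = 0.13).

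CCND2 was not called in any of the 18 agent comparisons. Its signal at 8 h was 12.22, 12.28 and 12.14 with both agents and 12.22, 12.22 and 12.20 with ATRA, against 12.68, 12.54 and 12.75 in controls. Both sets lay below all controls, by -0.45 ± 0.13 with both agents (adjusted p = 0.079) and -0.45 ± 0.13 with ATRA (adjusted p = 0.078). Its lowest adjusted p in the agent comparisons was 0.078. At 48 h the change with both agents was 0.01 ± 0.13, with a 95% interval from -0.25 to 0.27.

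**Figure D2:**
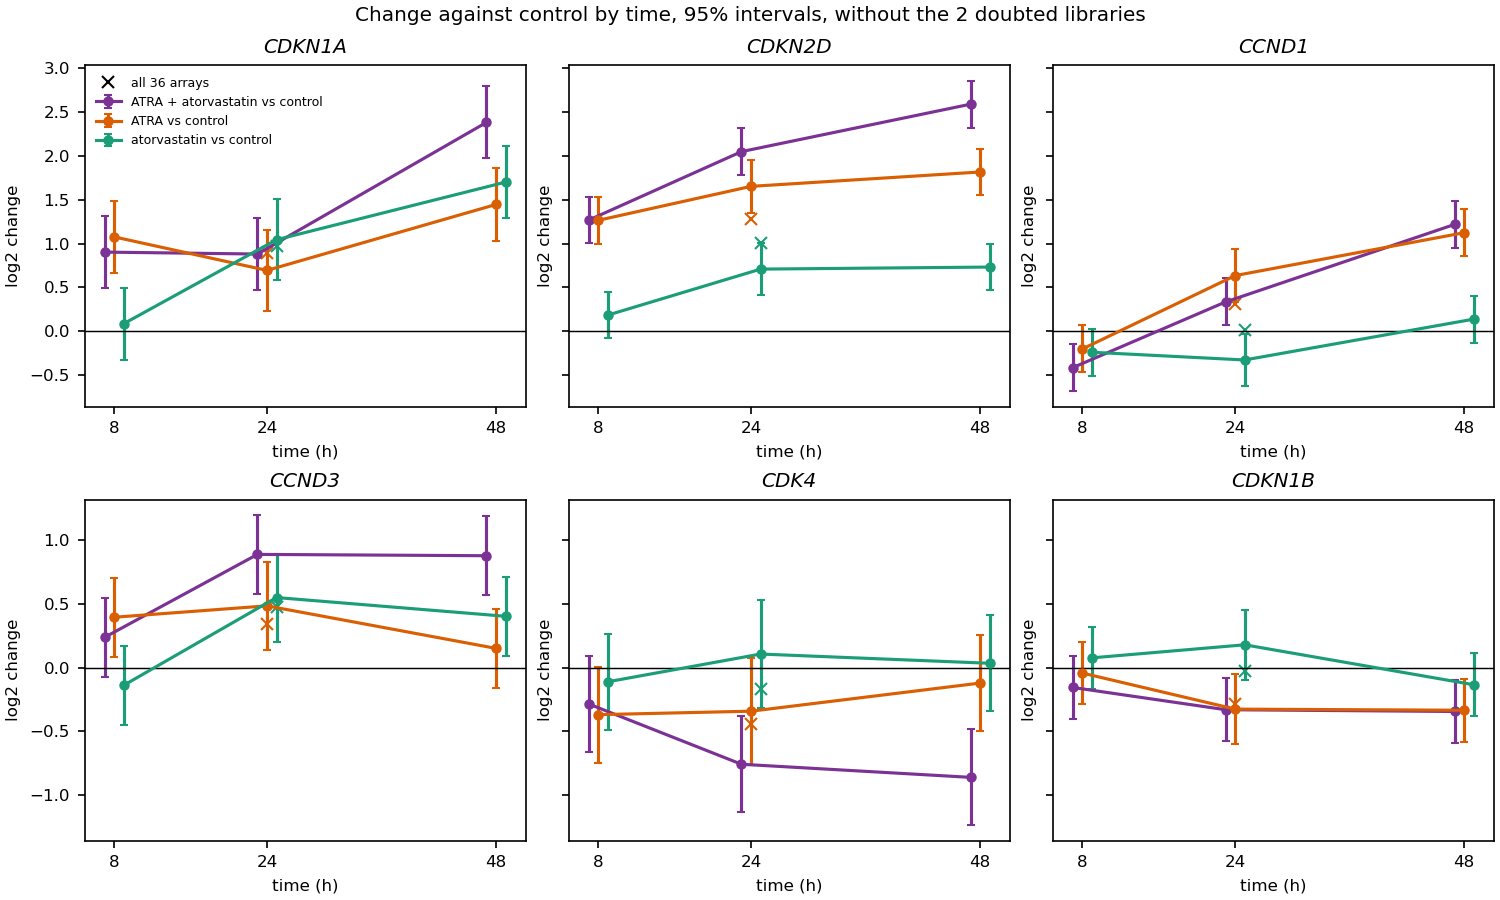
Change against control on the log2 scale (y axis) over time in hours (x axis) for 6 genes, with 95% intervals from the fit without the 2 doubted libraries and crosses from the fit on all 36 arrays. With atorvastatin CDKN1A goes through 0.09, 1.04 and 1.70 at 8, 24 and 48 h, and with ATRA through 1.08, 0.69 and 1.45.

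Of the kinases, CDK4 was lower with the combination. At 48 h its signal was 9.60, 9.11 and 9.76 with both agents, 10.48, 9.96 and 10.26 with ATRA, and 10.29, 10.36 and 10.52 with atorvastatin, against 10.02, 10.46 and 10.58 in controls. The arrays with both agents lay below all others at that time, and the other 3 treatments overlapped. The change was -0.86 ± 0.21 (0.55-fold, adjusted p = 0.0022) with both agents against control, -0.74 ± 0.21 against ATRA (adjusted p = 0.025) and -0.90 ± 0.21 against atorvastatin (adjusted p = 0.0021). At 24 h it was 9.81, 10.06 and 10.27 with both agents, against 10.47, 11.01 and 10.95 in controls, a change of -0.76 ± 0.21 (adjusted p = 0.021). With median scaling these 4 changes were -0.45, -0.47, -0.30 and -0.48, and none was called (adjusted p = 0.33 to 0.53). The 24 h call was also lost without 4 of 6 single libraries (-0.77 to -0.64) and on the 24 h arrays alone (adjusted p = 0.10), and the 48 h difference from ATRA without 3 of 6 (-0.73 to -0.55).

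CDK6 and RB1 were called in no agent comparison. CDK6 ranged from 6.12 to 6.59 over all 36 arrays, and its lowest adjusted p was 0.25. RB1, which the D cyclin kinases phosphorylate, ranged from 7.13 to 8.25. Its signal at 48 h was 7.51, 8.18 and 7.91 with both agents, against 7.44, 7.86 and 8.13 in controls, a change of 0.06 ± 0.24 with a 95% interval from -0.43 to 0.55. Replicate 1 was the lowest of the 3 arrays for RB1 in 11 of 12 groups, on average 0.32 below its group mean. With the replicate number as a block the 48 h change was again 0.06, at a smaller error of 0.14 (95% interval from -0.24 to 0.35), and it was not called (adjusted p = 0.84).

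Counted over all comparisons, 31 of 162 results of a member in an agent comparison were called, 38 without the doubted libraries and 12 without replicate 2. In the single agent comparisons the share of all genes called ran from 0 to 20.4%. These shares are given for scale and are no test, as the members were chosen with earlier results of these data known. At 48 h, 5 of 9 members were called with both agents against control, beside 20.4% of all genes, and 6 of 9 without the doubted libraries, beside 21.4%. With ATRA 3 of 9 were called beside 8.02%, and with atorvastatin 1 of 9, CDKN1A, beside 0.771%. Without the doubted libraries CDKN2D joined it with atorvastatin, 2 of 9 beside 1.7%. Against ATRA the combination changed 4 of 9, beside 6.4%, and against atorvastatin 5 of 9, beside 14.8%. Without replicate 2 these 2 counts fell to 0 and 2 of 9, and without replicate 1 to 2 and 3 of 9, with fewer arrays in each fit. The interaction at 48 h was called for 0 of 9 members with limma, with 2 at an unadjusted p under 0.05, beside 0.516% of all genes. CDKN1A and CDKN2D made up 20 of the 31 calls, CDK4 and CCND3 4 each and CCND1 3.

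At 24 h the combination changed 4 of 9 members against control, beside 6.02% of all genes, and ATRA 2 of 9, beside 0.601%. Without the doubted libraries ATRA again called 2 of 9, CDKN2D and CCND1, beside 4.06%. Atorvastatin at 24 h called 0 of 9 with limma, with 3 at an unadjusted p under 0.05, beside 0.0261% of genes, and 2 of 9 without the doubted libraries, beside 0.327%. Both agents against atorvastatin called CDKN2D at 24 h (1.04), 1 of 9 beside 1.48%, and 4 of 9 without the doubted libraries, beside 5.59%. The CDKN2D call was lost on the 24 h arrays alone (adjusted p = 0.25), without replicate 2 (0.94) or 3 (0.83) of the atorvastatin arrays and without replicate 3 of the arrays with both agents (1.00). At 8 h ATRA, both agents, and both agents against atorvastatin each called CDKN1A and CDKN2D, 2 of 9, beside 1.42%, 1.3% and 1.16% of all genes, but with probes averaged 1, 0 and 0. Without replicate 2 each of these 3 counts was 0, with fewer arrays in the fit. Atorvastatin at 8 h called 0 of 9 with limma and 0 at an unadjusted p under 0.05, beside 0.00653%. Both agents against ATRA called 0 of 9 members with limma at 8 h and at 24 h, with 0 and 2 at an unadjusted p under 0.05, beside 0.00653% and 0.0131% of genes. Comparisons within a time share their control arrays.

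**Figure D3:**
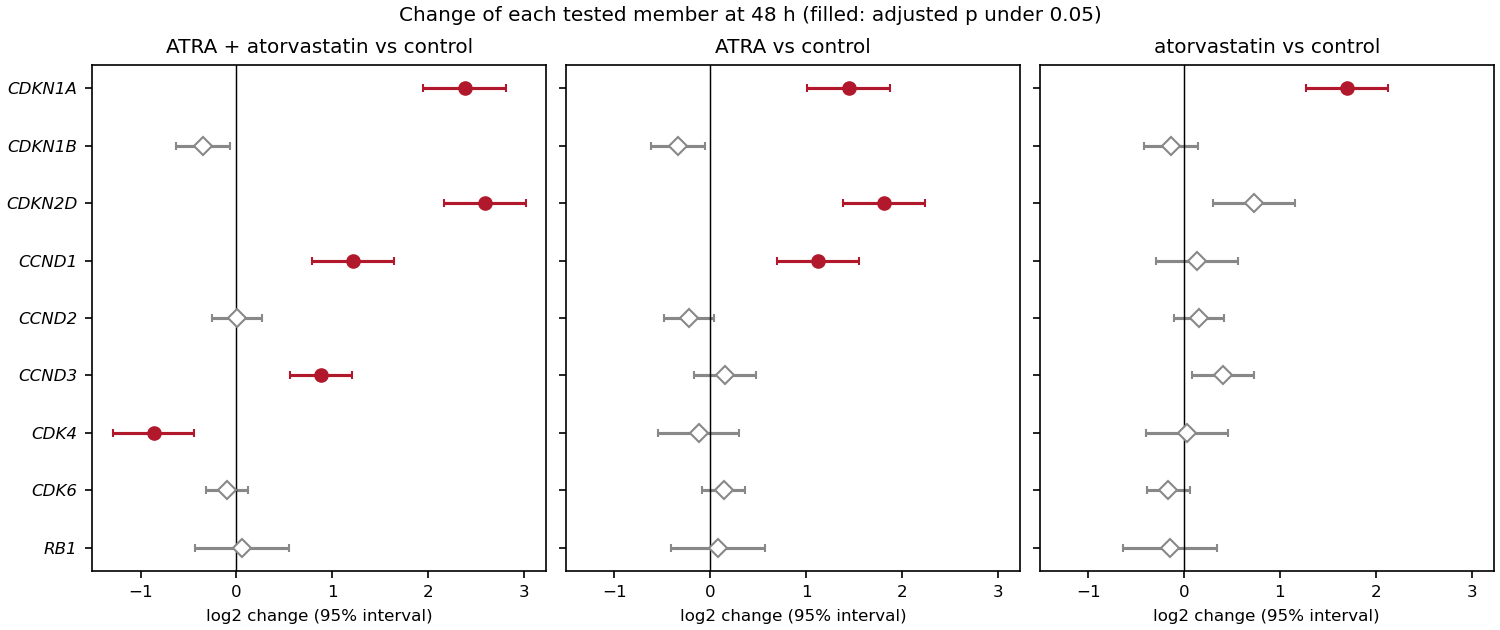
Log2 change against control at 48 h (x axis) of the 9 tested genes (rows) with both agents, ATRA and atorvastatin, with 95% intervals. Filled points have an adjusted p under 0.05; CDKN1A is filled in all 3 panels, at 2.38, 1.45 and 1.70, and is the filled point of the atorvastatin panel.

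Within the same arrays, the 48 h change of CDKN1A was set against that of each other member in 24 comparisons. They were added after seeing the data, with the rise of CDKN1A known, so they describe that pattern and are no independent test of it. CDK6, among the members compared, was read near the median probe. With atorvastatin CDKN1A changed by 0.97 more than CDKN2D and by 1.30 to 1.86 more than the other 7 members, and in all 8 cases the 3 within-array differences with atorvastatin lay above the 3 in controls. With both agents it changed by 0.21 less than CDKN2D, with overlapping arrays (exact permutation p = 0.5), and by 1.16 to 3.24 more than the other 7, without overlap. With ATRA it overlapped CDKN2D (-0.37, exact permutation p = 0.3) and CCND1 (0.32, exact permutation p = 0.5), and changed by 1.29 to 1.78 more than the other 6, without overlap. Each comparison without overlap had an exact two-sided permutation p of 0.1, the smallest that 3 against 3 arrays allow, so this design cannot pass 0.05 for a single pair.

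Within a treatment, 8 of 72 comparisons of 24 h or 48 h with 8 h were called for a member, and 4 without replicate 2. Of all genes, 0 to 16% were called in the single time comparisons. With both agents, 48 h against 8 h changed 4 of 9 members, beside 16% of all genes: CDKN1A by 1.44 ± 0.21, CDKN2D by 1.13 ± 0.21, CCND1 by 1.23 ± 0.21 and CDK4 by -0.90 ± 0.21, the last not called with median scaling (-0.72, adjusted p = 0.12). With atorvastatin only CDKN1A was called of the 9, at 1.57 ± 0.21 (adjusted p = 1.9e-05), beside 2.6% of genes. With ATRA CCND1 rose by 0.92 ± 0.21 (adjusted p = 0.0046) and CCND3 was lower as given above, 2 of 9 beside 5.91%. CDKN1A with ATRA was 0.33 ± 0.21 higher at 48 h than at 8 h, which was not called. In controls CDKN1B was the 1 member called, beside 3.59%.

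Growth of an effect was tested as the change at 48 h minus the change at 8 h. With atorvastatin against control CDKN1A grew by 1.61 ± 0.30 (adjusted p = 0.0094), the 1 member called beside 0.098% of all genes. With both agents against control CDKN1A grew by 1.48 ± 0.30, CDKN2D by 1.32 ± 0.30 and CCND1 by 1.63 ± 0.30, 3 of 9 beside 5.64%. With ATRA CCND1 grew by 1.32 ± 0.30 (adjusted p = 0.028), 1 of 9 beside 0.457%. The excess of both agents over ATRA grew for CCND3 by 0.89 ± 0.22 (adjusted p = 0.033), 1 of 9 beside 1.38%. These results for CCND1 with ATRA and for CCND3 lost their calls without 9 of 12 single libraries each, at 1.22 to 1.37 and 0.73 to 0.91. That of CDKN1A with atorvastatin was lost without replicate 2 of the 8 h controls (1.45, adjusted p = 0.061) with median scaling (1.43, adjusted p = 0.57) and with probes averaged (0.70, adjusted p = 0.24). That of CCND3 was also lost with median scaling (0.92, adjusted p = 0.27).

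The wider pathway was read from lists of genes named by role, with all genes as the comparison. With both agents at 48 h, 1480 of all 15308 genes were higher and 1638 lower, with a median change of -0.01, and each list's count is to be read beside that 20.4%. Higher calls were 47.5% of these, and 87.8% with median scaling, which moved the median of all genes to 0.10. Of 16 genes that E2F factors activate for DNA replication, 7 were lower and 1 higher, with a median of -0.32. The licensing factor CDT1 was lower by -0.95 (adjusted p = 6.6e-04), and the helicase subunits MCM6 and MCM4 by -0.87 and -0.69, while thymidine kinase TK1 rose by 0.60 (adjusted p = 0.015). With median scaling none of the 7 was called lower, and the list's median was 0.04. With the authors' values 7 were lower and 0 higher.

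Among 11 pocket protein and E2F family genes 2 were lower with both agents, near the 20.4% of all genes called. They were E2F5, by -1.91 (adjusted p = 1.6e-11), and TFDP1, the partner subunit of E2F, by -0.52. E2F5 stayed called with median scaling (-1.54), and TFDP1 did not (-0.12, adjusted p = 0.78). Of 5 cyclin E, cyclin A and CDK2 genes, 0 were called with limma or at an unadjusted p under 0.05. Of 4 other CDK inhibitor genes 0 were called at 48 h, with 1 at an unadjusted p under 0.05. At 24 h 1 of the 4 was called with both agents, beside 6.02% of all genes. It was CDKN1C, which encodes p57, higher by 0.75 ± 0.15 (adjusted p = 0.0011). Of 12 mitotic genes 2 rose at 48 h with both agents, a count near the 20.4% of all genes. They were the phosphatase CDC25B, by 0.50, and cyclin B gene CCNB1, by 0.44. Of 9 genes listed under p27 turnover, 3 were called, beside the 20.4% of all genes. The ubiquitin ligase subunit FBXW7 rose by 0.50, and CKS1B and CUL4A were lower by -0.42 each. Turnover of p27 itself was not measured. CKS1B and CUL4A were not called with median scaling (-0.09 and -0.01).

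Of 17 p53 target genes other than CDKN1A, 4 were called with both agents at 48 h, near the 20.4% of all genes, and 3 of them rose: the death receptor TNFRSF10B by 1.04 (adjusted p = 2.0e-06), the BCL2-family gene BBC3 by 0.88 and the kinase gene PLK3 by 0.67. The nuclease gene AEN was lower by -0.55, a call lost with median scaling (-0.27, adjusted p = 0.44). With ATRA PLK3 rose by 0.59 as the 1 of 17, beside 8.02% of all genes, and with atorvastatin 0 of 17 were called with limma, with 1 at an unadjusted p under 0.05, beside 0.771%. Of 12 transcription factors known to act on CDKN1A, 4 rose and 2 were lower with both agents. The granulocyte factor CEBPE rose by 2.82 (adjusted p = 3.2e-06), KLF6 by 1.41 (adjusted p = 0.012) and the retinoic acid receptor gene RARA by 1.02. MYC, a repressor of CDKN1A, was lower by -2.51 ± 0.18 with both agents (adjusted p = 1.9e-12), by -1.40 ± 0.18 with ATRA (adjusted p = 2.7e-06) and by -0.88 ± 0.18 with atorvastatin (adjusted p = 0.010, and 0.053 with median scaling). The immediate early gene EGR1 was lower by -1.75 with both agents, by -1.18 with ATRA and by -2.16 with atorvastatin (adjusted p = 2.1e-07), and MYC and EGR1 were the 2 of 12 called with atorvastatin. Markers of cell types moved in the same comparisons. Of 6 promyelocyte markers, 4 were called lower with both agents (median -1.18) and 3 with ATRA (median -0.62). With atorvastatin 0 of 6 were called with limma, and 3 without the doubted libraries. With median scaling MPO, CTSG and MS4A3 were called lower with both agents and with ATRA. ELANE, AZU1 and PRTN3 were then not called, with PRTN3 at 0.33 with both agents and 0.50 with ATRA. The summed intensity of the 6 markers ran from 16127 to 23936 with both agents and from 27366 to 34381 with ATRA. It ran from 31731 to 43557 with atorvastatin, against 58691 to 65632 in 48 h controls. Of 3 lymphoid markers tested, CD79A, a part of the B-cell receptor, rose by 2.36 ± 0.40 with both agents (adjusted p = 2.7e-05) and by 2.22 ± 0.40 with ATRA (adjusted p = 2.1e-04). CD3D fell by 0.40 with both agents (adjusted p = 0.017) and by 0.85 with ATRA (adjusted p = 1.4e-05), and MS4A1 was not called. With median scaling the CD3D change with both agents was 0.0070 and was not called (adjusted p = 0.99). With atorvastatin 0 of 3 were called with limma, and 0 at an unadjusted p under 0.05. The summed intensity of the lymphoid markers ran from 1382 to 1559 with both agents, from 1043 to 1336 with ATRA and from 1446 to 1656 with atorvastatin, against 1214 to 1512 in 48 h controls. The part of these markers in the members' changes was not tested.

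**Figure D4:**
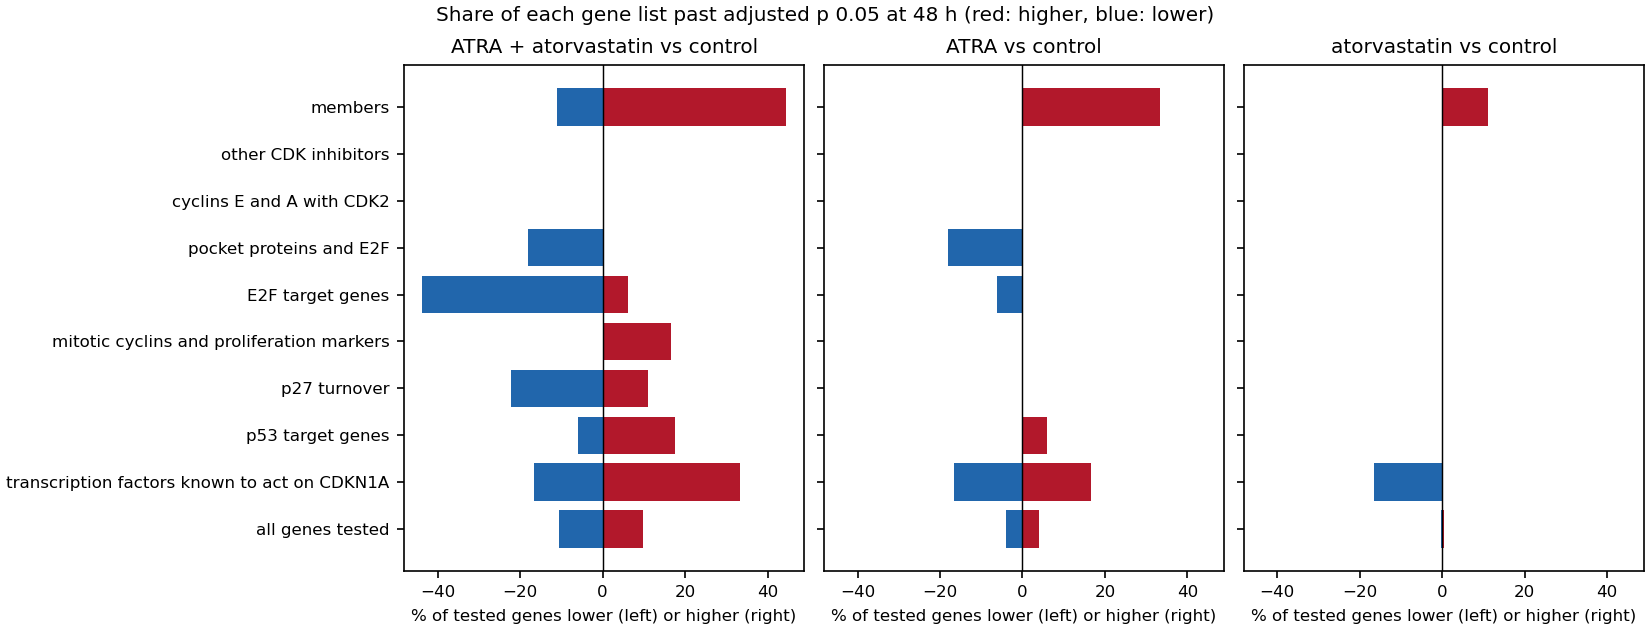
Percent of the tested genes of each list (rows) called higher (right, red) or lower (left, blue) at 48 h with both agents, ATRA and atorvastatin against control. With both agents the E2F targets hold 7 lower and 1 higher of 16, a split that median scaling removes, beside 1638 lower and 1480 higher of all 15308 genes.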

How the data were processed

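The 36 samples of NB4 total RNA were each read on an Illumina Sentrix Human-6 BeadChip array. Per the labels, the authors calculated the deposited probe intensities in BeadStudio 1.3.1.5 without background correction. The authors' deposited value table holds log2 values of the same arrays, with column medians between 6.68 and 6.69. Its normalisation is not given in the sources used here, and it served as an alternative.

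From the intensities, background was corrected by normexp (offset 50, on signals alone), followed by quantile normalisation and log2, in R 4.3.3 with limma 3.58.1. Of 47293 probes, 18468 had 1 gene symbol, updated by Entrez ID, and 28825 had none. A probe was kept where it exceeded the array median in 3 or more arrays, and the brightest probe stood for its gene, 15308 genes in all. Groups came from the titles, and replicates from runs of 12 title numbers. One limma model with 12 group means (24 residual df) gave 30 comparisons with two-sided tests, Benjamini-Hochberg adjusted over all genes in each. The number of arrays limits precision. The fit was tested on simulated data with independent noise on each array. That test does not cover deviations shared by same-numbered arrays.

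The members and gene lists were chosen with earlier results of these data known. All members are named in every comparison, of each other list at most the 3 largest rises and 3 largest falls past the threshold, and the 5 genes most like CDKN1A. Alternatives were computed for 66 member changes: those called on all arrays or without the doubted libraries, and all of CDKN1A with the agents. These changes and the counts of members called were recomputed without background correction, with scaling to the median, from the authors' values, and with dim probes kept. They were also recomputed with all probes of a gene averaged, on the arrays of the times compared alone, with a replicate block, and with each replicate left out. Other member changes, list genes and markers were recomputed at most under some of these. Leaving out the 2 doubted libraries or any single library was added after seeing the data, as was the within-array comparison of CDKN1A with the other members.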

Additional observations from a re-analysis of the deposited data

Results flagged for a closer look

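In 6 results an agent's effect at 48 h differed from its effect at 8 h by the test of that difference in the limma model over all genes (change at 48 h minus change at 8 h, 3 arrays in each of the 4 groups). Of CDKN1A, the effect of atorvastatin against control was larger at 48 h by 1.61 ± 0.30 (adjusted p = 0.0094), being 1.70 at 48 h and 0.09 at 8 h. The effect of both agents on CDKN1A was larger at 48 h by 1.48 ± 0.30 (adjusted p = 0.0016), on CDKN2D by 1.32 ± 0.30 (adjusted p = 0.0045) and on CCND1 by 1.63 ± 0.30 (adjusted p = 4.1e-04). For CCND1 the effect of both agents was 1.22 at 48 h and -0.41 at 8 h. The effect of ATRA on CCND1 was larger at 48 h by 1.32 ± 0.30 (adjusted p = 0.028). The excess of both agents over ATRA in CCND3 was larger at 48 h by 0.89 ± 0.22 (adjusted p = 0.033), being 0.73 at 48 h and -0.16 at 8 h. The results for CCND1 with ATRA and for CCND3 lost their calls without 9 of 12 single libraries each. That of CDKN1A with atorvastatin lost its call with median scaling and with probes averaged, and that of CCND3 with median scaling.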

How the results depend on the processing

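The 66 member changes defined above were recomputed under 11 alternatives. Of CDKN1A at 48 h, the changes against control kept their direction and call under all 11, at 1.11 to 2.73 with both agents, 0.65 to 1.60 with ATRA and 0.70 to 1.78 with atorvastatin. Without replicates or single libraries, the excess of both agents over ATRA ran from 0.73 to 1.26 and that over atorvastatin from 0.55 to 0.78, partly uncalled. The excess over atorvastatin was also uncalled on 48 h arrays only (0.68). Leaving out 1 replicate gave 12 to 28 calls with the agents (31 on all arrays), 4 to 9 over time (8) and 1 to 5 for growth (6), with fewer samples in each fit.

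Directions turned for uncalled changes. With median scaling CDKN1A was 0.032 for both agents against ATRA at 8 h and 0.27 for both against atorvastatin at 24 h. CDKN1B then was 0.084 for both against atorvastatin at 24 h and 0.062 for both against control at 48 h. For both agents against ATRA at 24 h CDKN1A was 0.0039 with the authors' values, 0.19 without the doubted libraries, and -0.17 to 0.23 without 1 replicate. Leaving out 1 replicate, CDKN1A ranged from -0.041 to 0.17 with atorvastatin at 8 h and from -0.19 to 0.018 for both against atorvastatin at 24 h. The cause was not tested.

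Replicate numbers were not taken to pair the samples. Of 41 same-numbered pairs, 27 had deviations correlated above 0.1, and 28 of 34 libraries were closest to their own number. With a replicate block the calls numbered 31 with the agents, 8 over time and 7 for growth; it ended none of the members' calls and added CDKN1A for growth of both agents over ATRA (1.11, adjusted p = 0.040). Signal over background limits CDK6, near the median probe, and the dim further probes of CDKN1A and CDKN2D.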

Other observations

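Among 1475 tested genes whose group means spanned at least 1 log2 unit, the 5 whose 12 group means correlated best with those of CDKN1A were AKNA (Pearson r = 0.94), POLR3GL (0.93), HOXC6 (0.93), LPXN (0.92) and IFIH1 (0.92). Without the doubted libraries these were 0.87 to 0.91. The points share their libraries and normalisation, so these values describe a pattern only. IFIH1 encodes the RNA sensor MDA5, and its group means ran from 7.04 to 9.42. LPXN encodes leupaxin, an adaptor protein of leukocytes, with group means from 8.70 to 11.07.

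Over the 12 group means CDKN1A stood in the order both agents at 48 h (9.63), atorvastatin at 48 h (8.95), ATRA at 48 h (8.70) and ATRA at 8 h (8.36), then 4 means between 8.06 and 8.19 at 8 and 24 h. Atorvastatin at 8 h (7.38) and the 3 controls (7.18 to 7.29) came last. On all arrays the means at 8.06 to 8.19 differ by less than their spread over arrays (SD 0.13 to 0.39). Without the doubted libraries the 24 h means were 8.23 with atorvastatin and 7.88 with ATRA, both outside that range, over 2 arrays each.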
